A study of Mus musculus with 6 samples.

Results

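The genes described here encode the protein folding machinery and the unfolded protein response. They were chosen by symbol from the deposited count table, 38 members of 23204 genes, and every member was found and had enough counts to be tested. By role they comprise 15 chaperones, lectins and oxidoreductases of the endoplasmic reticulum (ER), 4 genes of ER-associated degradation, 8 sensors and transcription regulators of the unfolded protein response, 7 cytosolic chaperones, 3 mitochondrial chaperones and the heat shock transcription factor gene *Hsf1*. RNA was sequenced from C57BL/6 mouse bone marrow cultures that had been held in M-CSF for 2 days, after which the adherent precursors were given RANKL and M-CSF to form osteoclasts, the multinucleated cells that resorb bone. The 3 libraries labelled mutant carry the genotype Tet2Rank–/–; Tet3aRank+/–, written Tet2KOTet3Het in the column names and read here as loss of both copies of *Tet2* and 1 copy of *Tet3*, and the 3 others are wild type (WT). TET2 and TET3 oxidise methylated cytosine in DNA. Per the labels each genotype has 1 female and 2 male samples, but the column names do not say which library is which, and neither the age of the mice nor the meaning of Rank and of the a in Tet3a is spelled out. Column names begin with a number, used here for the libraries: 2, 3 and 5 are mutant-labelled and 1, 4 and 6 are WT.

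Proteins that enter the ER are folded by the HSP70 protein BiP (*Hspa5*) and the HSP90 protein GRP94 (*Hsp90b1*), by the lectins calreticulin and calnexin, which hold glycoproteins, and by protein disulfide isomerases, which form and exchange disulfide bonds. When unfolded proteins build up there, the membrane proteins IRE1 (*Ern1*), PERK (*Eif2ak3*) and ATF6 signal to the nucleus: IRE1 splices the mRNA of the transcription factor XBP1, PERK slows translation and favours synthesis of ATF4, and ATF6 is cut to release a transcription factor. In the cytosol the chaperones HSC70 (*Hspa8*) and HSP90 (*Hsp90aa1*, *Hsp90ab1*) do the corresponding work. HSF1 induces the heat-inducible chaperone genes on heat stress, while *Hspd1*, *Hspe1* and *Hspa9* serve the mitochondrial matrix. Osteoclasts secrete acid hydrolases and proteases through the ER, and are rich in mitochondria.

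Promoter elements are shown because they are how the sensors' transcription factors reach these genes. RefSeq promoter windows of the mouse build GRCm38.p6, from 250 bases before to 50 after the annotated start, matched 30 of the 38 members by symbol, and *Hyou1*, *Manf*, *Atf6*, *Hspa8*, *Hsp90aa1*, *Hsp90ab1*, *Hspa9* and *Hsf1* had no entry. Both strands were searched for the ER stress element (ERSE, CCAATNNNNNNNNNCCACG, bound by ATF6 with NF-Y), which 8 of the 30 members and 0.119% of all 32851 windows held. Of 13 ER chaperone genes with a window 7 held it, of 4 degradation genes 1 did, and the matches read as follows along the element, on the strand given, with its fixed letters in capitals.
Hspa5 (chr2:34772025-34772043, plus strand): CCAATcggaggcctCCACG
Hsp90b1 (chr10:86705638-86705656, minus strand): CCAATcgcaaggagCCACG
Hsp90b1 (chr10:86705533-86705551, plus strand): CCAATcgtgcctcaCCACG
Calr (chr8:84847075-84847093, plus strand): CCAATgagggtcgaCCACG
Canx (chr11:50325800-50325818, minus strand): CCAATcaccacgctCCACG
Pdia6 (chr12:17266491-17266509, plus strand): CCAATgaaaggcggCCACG
Dnajc3 (chr14:118937827-118937845, plus strand): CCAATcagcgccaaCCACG
Creld2 (chr15:88819520-88819538, minus strand): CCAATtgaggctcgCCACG
Syvn1 (chr19:6046532-6046550, plus strand): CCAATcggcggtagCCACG

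A shorter form, ERSE-II (ATTGG, any base, then CCACG), was found in 2 members, *Dnajb11* and *Herpud1*, and in 0.0365% of windows. The UPRE octamer TGACGTGG was in 0 members and 0.676% of windows. The ATF4-type element TGATGNAA was in *Herpud1* and *Trib3*, and in 3.97% of windows. A heat shock element (HSE, the triplets GAA, TTC and GAA, or TTC, GAA and TTC, each parted by 2 bases, forms that overlap where the triplets run on) was in *Hsph1*, *Hspd1* and *Hspe1*, and in 0.603% of windows. *Hspd1* and *Hspe1* lie head to head on chromosome 1, with 112 exon bases shared on opposite strands, and of the 2 windows listed for *Hspd1* 1 held the same elements as that of *Hspe1* and the other held none. A gene with several windows is counted where any of them held the element. A match describes letters in a window and does not show binding. The windows of *Hspa5* and *Hsp90b1*, the main ER chaperones, of *Hspe1*, with the heat shock elements, and of *Sdf2l1*, an ER cochaperone gene that recurs below and held no match, are given with matched letters in capitals.
Hspa5 (GRCm38.p6 chr2:34771840-34772139, plus strand): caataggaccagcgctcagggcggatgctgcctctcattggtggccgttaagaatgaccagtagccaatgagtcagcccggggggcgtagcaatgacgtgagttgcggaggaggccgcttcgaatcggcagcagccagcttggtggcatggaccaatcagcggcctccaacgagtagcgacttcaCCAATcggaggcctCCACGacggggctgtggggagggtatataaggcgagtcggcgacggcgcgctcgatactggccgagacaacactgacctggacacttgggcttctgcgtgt
Hsp90b1 (GRCm38.p6 chr10:86705395-86705694, minus strand): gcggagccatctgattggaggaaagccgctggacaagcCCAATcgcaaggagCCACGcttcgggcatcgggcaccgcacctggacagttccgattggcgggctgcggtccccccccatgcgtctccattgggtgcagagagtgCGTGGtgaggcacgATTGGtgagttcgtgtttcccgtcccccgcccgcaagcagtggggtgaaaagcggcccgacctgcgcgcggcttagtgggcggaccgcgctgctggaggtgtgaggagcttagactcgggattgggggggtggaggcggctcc
Hspe1 (GRCm38.p6 chr1:55087898-55088197, plus strand): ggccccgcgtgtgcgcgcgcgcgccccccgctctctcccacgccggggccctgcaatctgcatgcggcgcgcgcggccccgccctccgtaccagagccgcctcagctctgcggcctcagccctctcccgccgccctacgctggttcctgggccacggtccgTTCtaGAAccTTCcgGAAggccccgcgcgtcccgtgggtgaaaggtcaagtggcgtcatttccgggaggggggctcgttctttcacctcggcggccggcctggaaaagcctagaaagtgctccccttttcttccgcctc
Sdf2l1 (GRCm38.p6 chr16:17132334-17132633, minus strand): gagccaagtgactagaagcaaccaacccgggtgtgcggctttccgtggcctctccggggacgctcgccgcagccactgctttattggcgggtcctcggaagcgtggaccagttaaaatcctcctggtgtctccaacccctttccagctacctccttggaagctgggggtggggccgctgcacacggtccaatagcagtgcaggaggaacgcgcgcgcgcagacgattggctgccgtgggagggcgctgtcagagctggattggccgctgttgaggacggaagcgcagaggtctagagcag

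Total counts per library ran from 9519978 to 14267135 in the mutant-labelled libraries and from 8794973 to 12845879 in WT. Libraries 5 and 6 have column names with 2 numbers and the others have 1, a split called the naming batch that holds both genotypes on each side. CPM here means counts scaled to a common library total, each total first multiplied by a TMM scaling factor (0.971 to 1.048). On log2 CPM, the leading principal component (68.1% of the variance) had libraries 6 and 5 at its far end, while the next (15.3%) parted mutant-labelled from WT libraries. *Tet2* stood at 58.2, 45.5 and 52.3 CPM in mutant-labelled libraries 2, 3 and 5, against 71.7, 80.9 and 79.3 CPM in WT libraries 1, 4 and 6, and *Tet3* at 163, 141 and 156 CPM against 145, 121 and 127 CPM. Every mutant-labelled library lay below every WT library for *Tet2*, though far from 0, and *Tet3* was not lower. Counts cover whole genes, so a deletion of some exons need not remove them, and the libraries are therefore called mutant-labelled throughout. A two-sided exact permutation test gave *Tet2* p = 0.1, the smallest that 3 against 3 libraries allow, and *Tet3* p = 0.2. The 11 osteoclast markers summed to between 1318 and 5359 CPM per kilobase of exon in mutant-labelled libraries and between 6766 and 17694 in WT. The 10 macrophage markers summed to between 4151 and 4575 in mutant-labelled libraries against 2443 to 3064 in WT. The 10 B and plasma cell markers summed to between 59.2 and 76.9 in mutant-labelled libraries and between 51.5 and 74.6 in WT. Of these, *Cd79b* (12.3, 9.07 and 9.45 CPM in mutant-labelled against 3.50, 6.504 and 3.13 CPM in WT libraries, edgeR adjusted p = 0.143, DESeq2 adjusted p = 0.0224) was higher in every mutant-labelled library. *Tnfrsf17* (0.0700, 0 and 0.149 against 1.28, 0.542 and 0.321 CPM) was lower in every one, with too few counts to be tested. *Ighm* and *Sdc1* were the most abundant, with log2 fold changes of 0.69 and -0.75. *Jchain*, *Mzb1* and *Tnfrsf17* were at 0 in at least 1 library. The 7 neutrophil markers summed to between 376 and 1312 in mutant-labelled libraries and between 209 and 833 in WT, and the 5 erythroid markers to 58.5, 36.9 and 0.561 in mutant-labelled libraries 2, 3 and 5, against 12.7, 51.2 and 0 in WT libraries 1, 4 and 6. In RNA from bulk cultures, fewer cells of a type and less RNA per cell cannot be told apart.

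None of the members passed the test between genotypes, and their log2 fold changes lay between -0.60 and 0.48. By edgeR's quasi-likelihood test, with Benjamini-Hochberg adjustment over 14040 genes and a threshold of 0.05, 0 of the 38 members rose and 0 fell, where 0.0712% of all genes passed, 0.0499% higher and 0.0214% lower. At an unadjusted p under 0.05 stood 7 members (18.4%), 1 higher and 6 lower in the mutant-labelled libraries, against 19.6% of all genes, 7.19% higher and 12.4% lower. The libraries of the genotypes did not overlap for 10 members (26.3%), 1 higher and 9 lower, against 26.8% of all genes, 9.91% higher and 16.9% lower. Taken over both directions, these shares are near those of all genes. By sign, 28 members had log2 fold changes below 0 and 10 above, against 7473 and 6567 of the 14040 genes. The median log2 fold change was -0.13 over the members and -0.03 over all genes tested. DESeq2 called 1 member lower, *Atf6*, where it called 6% of genes lower, and limma-voom called 0. When the naming batch was added to the model, edgeR called 2 members lower, *Atf6* and *Hspe1*, and 0 higher; this is 5.26% of members, against 8.68% of all genes, 3.08% higher and 5.6% lower.

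**Figure D1:**
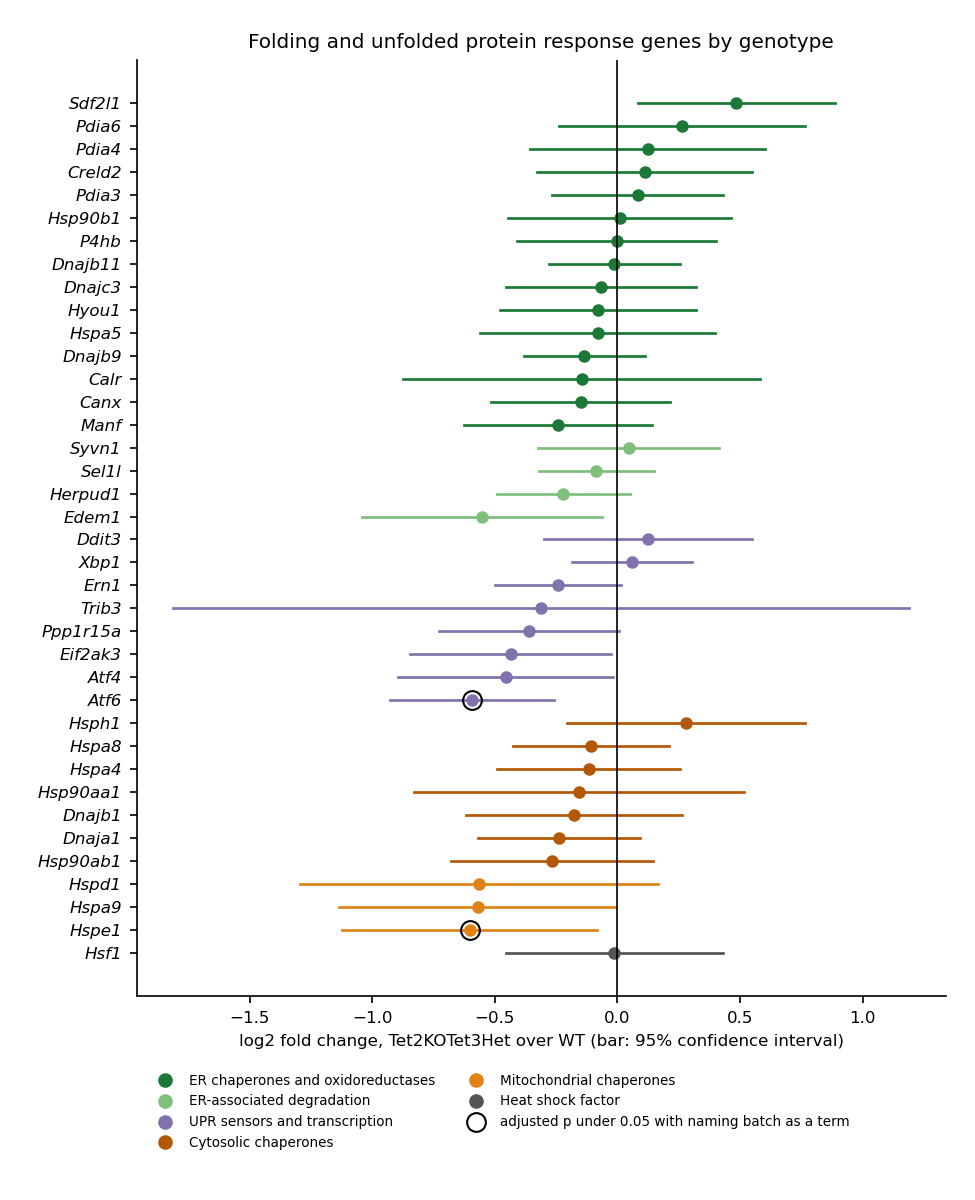
Log2 fold change of each of the 38 members, mutant-labelled (Tet2KOTet3Het) over WT libraries (n = 3 each), with its 95% confidence interval from the edgeR fit, ordered by role; *Atf6* and *Hspe1*, ringed, passed when the naming batch was included. The ER chaperones lie around 0, from -0.24 to 0.48, and the 3 mitochondrial chaperones lie between -0.60 and -0.57.

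The ER chaperones were among the most abundant members and their genotype means were close. *Calr*, which encodes calreticulin, had the highest level per length, at 349 CPM per kilobase of exon in mutant-labelled libraries and 386 in WT, followed by *P4hb* (253 against 253), *Pdia3* (248 against 234), *Hspa5* (218 against 230.0) and *Hsp90b1* (217 against 216). *Dnajb9*, the gene of a BiP cochaperone, had the lowest, at 16.99 against 18.7. The order of levels was nearly the same in both genotypes, as the plot of level per exon length shows.

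**Figure D2:**
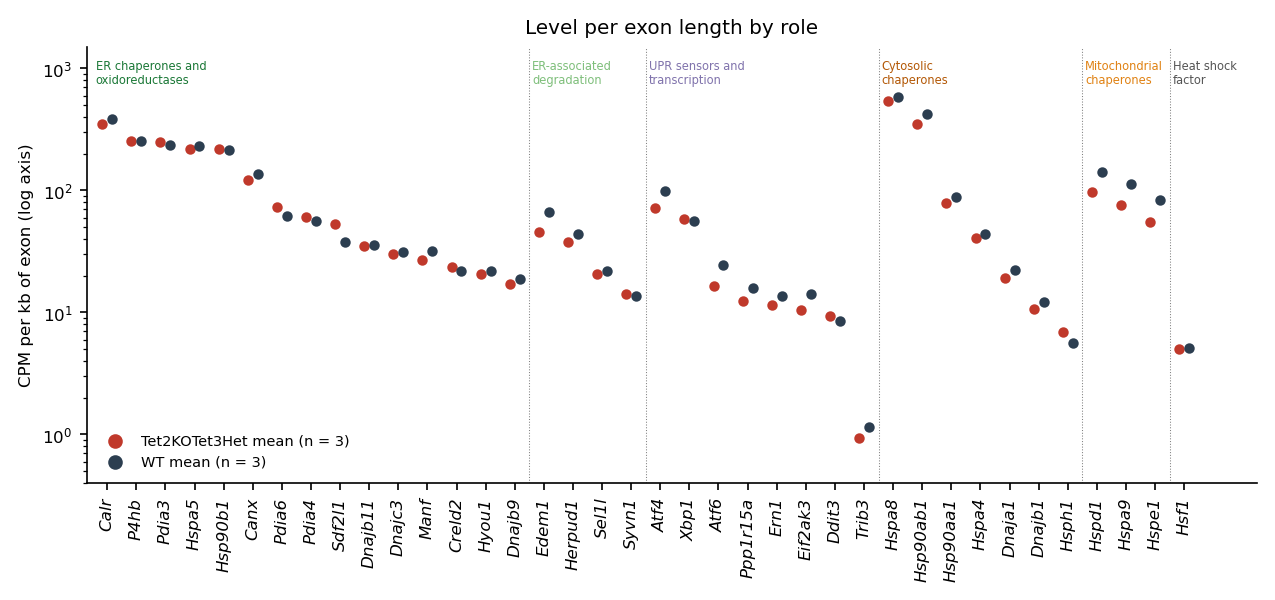
Mean level of each member in CPM per kilobase of exon (log axis) in mutant-labelled (left point of each pair, n = 3) and WT libraries (right point, n = 3), grouped by role and ordered by level. *Hspa8* and *Hsp90ab1* lead the cytosolic group and *Calr* the ER group, and *Trib3* is near 1 CPM per kilobase.

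*Hspa5* stood at 781, 916 and 1065 CPM in mutant-labelled libraries 2, 3 and 5, against 873, 848 and 1197 CPM in WT libraries 1, 4 and 6. *Hsp90b1* gave 713, 877 and 1036 CPM in the mutant-labelled libraries and 862, 753 and 994 CPM in WT; some of its exon bases also belong to a pseudogene on the opposite strand, and the strand setting of the counting is not known. In both genes the genotypes overlapped, library 2 was the lowest and a library of the naming batch with 2 numbers was the highest. The log2 fold change was -0.08 for *Hspa5* (95% interval -0.56 to 0.40, edgeR adjusted p = 0.911) and 0.01 for *Hsp90b1* (-0.45 to 0.46, edgeR adjusted p = 0.991). *Calr* varied widely from library to library, at 728, 953 and 1334 CPM in mutant-labelled and 935, 890.0 and 1509 CPM in WT libraries, with libraries 5 and 6 highest in their genotypes. *P4hb*, the gene of protein disulfide isomerase, gave 613, 732 and 824 CPM in mutant-labelled and 686, 657 and 831 CPM in WT libraries, which overlapped, and its log2 fold change had an interval of -0.41 to 0.40.

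Among the other disulfide isomerases, *Pdia3*, whose product works with calreticulin and calnexin on glycoproteins, had a log2 fold change of 0.08, *Pdia4* of 0.12 and *Pdia6* of 0.26. *Pdia6* averaged 277 ± 63.4 CPM in mutant-labelled libraries and 230.5 ± 40.9 CPM in WT (SD, n = 3 each), a difference within the spread of the libraries (edgeR adjusted p = 0.579). *Canx*, the gene of calnexin, had -0.15, and *Hyou1*, which encodes a nucleotide exchange factor of BiP, -0.08.

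*Sdf2l1*, whose product binds BiP together with ERDJ3 (*Dnajb11*), was the only member with higher values in every mutant-labelled library, at 48.0, 64.3 and 64.9 CPM, against 43.4, 35.7 and 47.6 CPM in WT libraries. The groups were separated by a narrow gap between library 2 and library 6. Its log2 fold change was 0.48 (SE 0.167, interval 0.08 to 0.89), with an unadjusted p of 0.0252 and an edgeR adjusted p of 0.183, or 0.0903 with the batch included. Its partner *Dnajb11* averaged 114 ± 6.97 CPM in mutant-labelled and 115 ± 10.6 CPM in WT libraries (SD, n = 3 each).

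*Dnajb9* (ERDJ4), which helps BiP bind IRE1, also had libraries that did not overlap, in the other direction, but by little: 42.6, 43.9 and 43.5 CPM in mutant-labelled libraries against 45.4, 44.5 and 52.8 CPM in WT (log2 fold change -0.13, edgeR adjusted p = 0.559). *Dnajc3*, which encodes the cochaperone P58IPK, had a log2 fold change of -0.07, and the secreted ER stress proteins' genes *Creld2* and *Manf* had 0.11 and -0.24. Over the 15 ER chaperone genes the median was -0.01, with 6 above 0 and 9 below. The 8 members with an ERSE in their window, of which *Syvn1* is a degradation gene, ranged from -0.15 to 0.26.

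Libraries of a genotype differed widely in ER chaperone level. Summed over the 15 genes the level was 1442, 1736 and 2066 CPM per kilobase in mutant-labelled libraries 2, 3 and 5, against 1657, 1549 and 2108 in WT libraries 1, 4 and 6. Library 2 held the lowest value of 11 of these genes and library 4 that of the other 4, and library 6 held the highest of 8 and library 5 of 6. The summed stromal markers were lowest in library 2 and highest in libraries 5 and 6 (92.8, 267 and 407 CPM per kilobase in the mutant-labelled libraries, 111, 117 and 309 in WT). *Col1a1* and *Col1a2*, the most abundant, led this sum, and the single markers differed in order. *Dcn* was highest in library 2 (42.0 CPM) and lowest in libraries 5 and 6 (8.63 and 2.16 CPM). *Lum* was highest in library 4, *Col3a1* lowest in library 1 and *Runx2* lowest in library 4. None of the 7 was at 0, and their part in the ER levels was not tested.

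ER-associated degradation, which returns misfolded proteins to the cytosol for the proteasome, had log2 fold changes from -0.55 to 0.05 over its 4 genes. *Edem1*, whose mannosidase-like product marks misfolded glycoproteins for removal, stood at 238, 282 and 361 CPM in mutant-labelled libraries, against 437, 356 and 501 CPM in WT. Library 5 reached just above WT library 4, so the groups overlapped at that point. The log2 fold change was -0.55 (SE 0.203, unadjusted p = 0.0320, edgeR adjusted p = 0.205), and the edgeR adjusted p with the batch included was 0.0516, so that it did not pass in either fit. *Herpud1*, an ER membrane protein of the degradation complex, gave 85.3, 98.8 and 79.3 CPM in mutant-labelled and 102, 98.3 and 106 CPM in WT libraries, overlapping in library 3. *Sel1l* and *Syvn1*, which encode the adaptor and the ubiquitin ligase HRD1 at the core of that complex, had log2 fold changes of -0.09 (interval -0.32 to 0.15) and 0.05 (-0.32 to 0.42).

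Of the 8 sensor and regulator genes, 5 had lower values in every mutant-labelled library, among them the genes of all the membrane sensors, where 16.9% of all genes were lower in this way; with so few genes nothing particular to the group is read from the count. *Atf6* (chromosome 1, 170704674 to 170867771, mm10) stood at 143, 139 and 171 CPM in mutant-labelled libraries 2, 3 and 5, against 244, 198 and 239.7 CPM in WT libraries 1, 4 and 6. The highest mutant-labelled library lay below the lowest WT library. Its mean was 151 ± 17.2 against 227 ± 25.3 CPM (SD, n = 3 each), a log2 fold change of -0.59 (SE 0.139, interval -0.93 to -0.26). The edgeR adjusted p was 0.103, against 0.0338 once the naming batch was included and 0.00933 in DESeq2, so that the call depended on the model. *Eif2ak3*, the gene of PERK, gave 57.8, 63.8 and 66.9 CPM in mutant-labelled libraries and 79.3, 69.5 and 106 CPM in WT, a log2 fold change of -0.44 (edgeR adjusted p = 0.229). A transcript annotated on its opposite strand shares some of its exon bases. *Ern1*, the gene of IRE1, differed less, at 102, 94.7 and 88.3 CPM in mutant-labelled and 117, 103 and 117 CPM in WT libraries, and library 2 came within 1 CPM of library 4 (log2 fold change -0.24, edgeR adjusted p = 0.283).

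Downstream of the sensors the levels were mixed. *Xbp1* stood at 191, 195 and 182 CPM in mutant-labelled libraries and 169, 191 and 185 CPM in WT, with a log2 fold change of 0.06 (interval -0.19 to 0.30); gene counts do not tell its spliced from its unspliced form. *Atf4* had 141, 193 and 175 CPM in mutant-labelled and 208, 208 and 282 CPM in WT libraries, with no overlap and library 6 well above the rest, and its log2 fold change was -0.46 (edgeR adjusted p = 0.238). *Ppp1r15a*, which encodes GADD34, the phosphatase subunit that reverses the PERK signal, gave 33.9, 43.9 and 30.8 against 44.1, 45.8 and 49.4 CPM (log2 fold change -0.36, edgeR adjusted p = 0.262), and library 3 nearly reached library 1. *Ddit3*, the gene of the pro-apoptotic factor CHOP, was low in both genotypes, at 16.0 ± 2.69 CPM in mutant-labelled and 14.7 ± 0.841 CPM in WT libraries (SD, n = 3 each); the annotation places a second protein-coding locus over part of its exons. *Trib3*, a pseudokinase gene induced by ATF4 and CHOP, had between 11 and 48 counts in the mutant-labelled libraries and between 13 and 43 in WT, too few to resolve a difference (interval of the log2 fold change -1.81 to 1.19). The median log2 fold change of the 8 genes was -0.34.

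**Figure D3:**
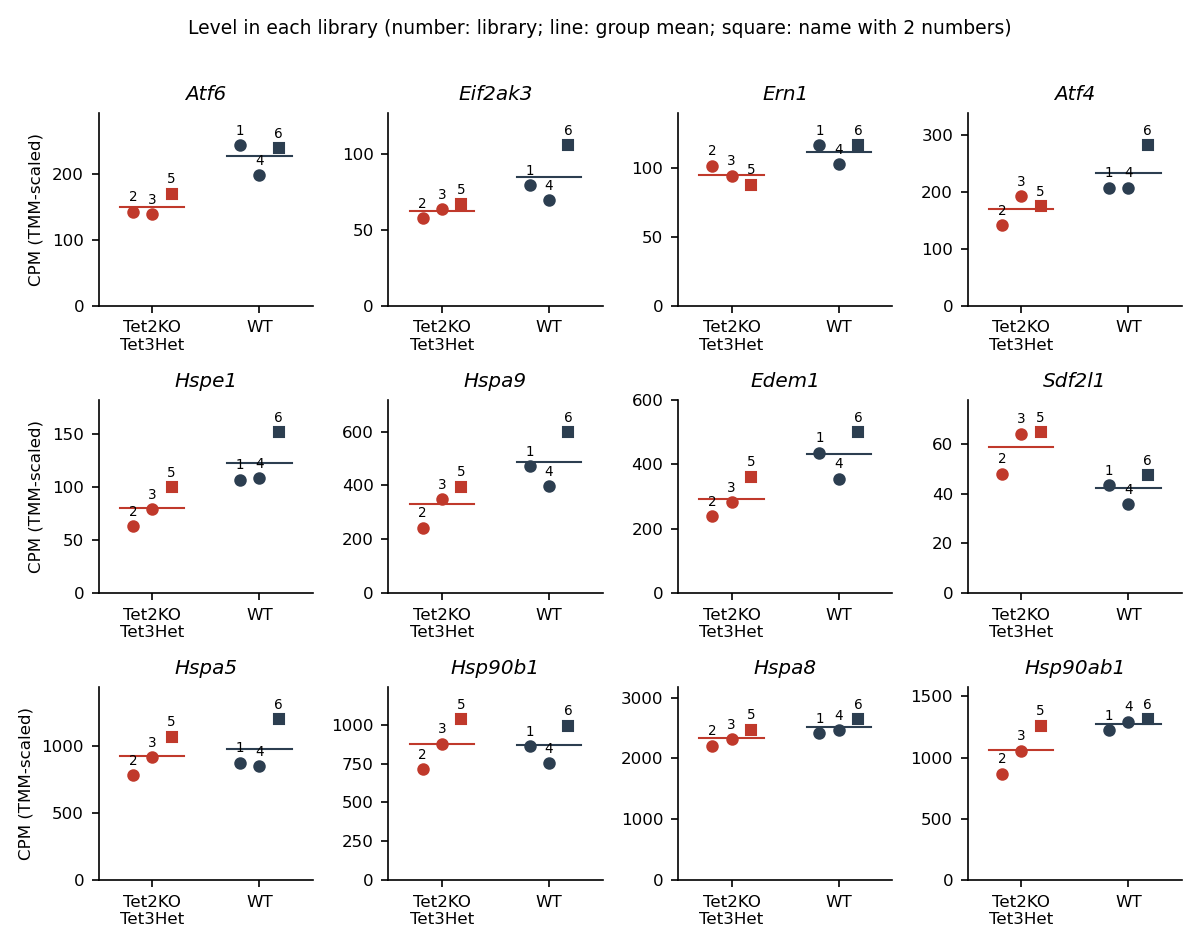
CPM (TMM-scaled) of 12 members in each library, mutant-labelled (Tet2KOTet3Het, red) left of WT (dark), with the library number, the group mean as a line and squares for the libraries whose names hold 2 numbers. *Atf6*, *Eif2ak3*, *Ern1*, *Atf4*, *Hspe1* and *Hspa9* are lower in every mutant-labelled library, *Sdf2l1* is higher in every one, and *Hspa5* and *Hsp90b1* overlap.

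None of the 7 cytosolic chaperone genes passed in edgeR with or without the naming batch, or in DESeq2. *Hspa8*, the most abundant member, gave 2211, 2312 and 2471 CPM in mutant-labelled libraries, against 2415, 2467 and 2647 CPM in WT, with only library 5 inside the WT range and a log2 fold change of -0.11 (interval -0.42 to 0.21, edgeR adjusted p = 0.758). *Hsp90ab1*, the constitutive HSP90 gene, had 866, 1055 and 1259 CPM in mutant-labelled and 1223, 1293 and 1313 CPM in WT libraries; library 5 again fell in the WT range (log2 fold change -0.27, edgeR adjusted p = 0.471). *Hsp90aa1*, the stress-inducible HSP90 gene, was far lower in library 2 than in any other library, at 190.0, 336 and 403 CPM in mutant-labelled libraries against 327, 310.3 and 398 CPM in WT. *Dnaja1*, an HSP40 cochaperone gene, had 138, 177 and 177 CPM in mutant-labelled and 191, 182 and 208 CPM in WT libraries, which did not overlap (log2 fold change -0.24, edgeR adjusted p = 0.412); 608 of its exon bases lie over *Smu1* on the other strand. *Dnajb1*, a cochaperone gene induced by HSF1, had a log2 fold change of -0.18, and *Hspa4* and *Hsph1*, which encode HSP110-family exchange factors, had -0.12 and 0.28. *Hsf1* itself stood at 31.5, 38.01 and 38.3 CPM in mutant-labelled and 27.5, 38.2 and 42.8 CPM in WT libraries, and the WT libraries enclosed the others (log2 fold change -0.01, interval -0.46 to 0.43). The median over the 7 cytosolic genes was -0.16, with 1 above 0.

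Set against each other within a library, ER and cytosolic chaperones had ratios that overlapped between genotypes. The summed level of the 15 ER genes per length was 1.57, 1.64 and 1.75 times that of the 7 cytosolic genes in mutant-labelled libraries 2, 3 and 5, against 1.46, 1.33 and 1.69 times in WT libraries 1, 4 and 6. These ratios do not depend on how libraries are scaled. WT library 6 lay within the mutant-labelled range and WT libraries 1 and 4 below it, and the means were 1.65 ± 0.0874 and 1.49 ± 0.180 (SD, n = 3 each); no test was made of this score. For the pair of HSP70 genes, *Hspa5* over *Hspa8*, the ratio was 0.359, 0.403 and 0.438 in mutant-labelled libraries against 0.368, 0.350 and 0.460 in WT, which overlapped. For the HSP90 pair, *Hsp90b1* over *Hsp90ab1*, it was 0.612, 0.618 and 0.612 in mutant-labelled libraries against 0.524, 0.433 and 0.563 in WT, which did not. The ratio to *Hsp90aa1*, the other cytosolic HSP90 gene, was not taken, and no test was made of either pair.

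**Figure D4:**
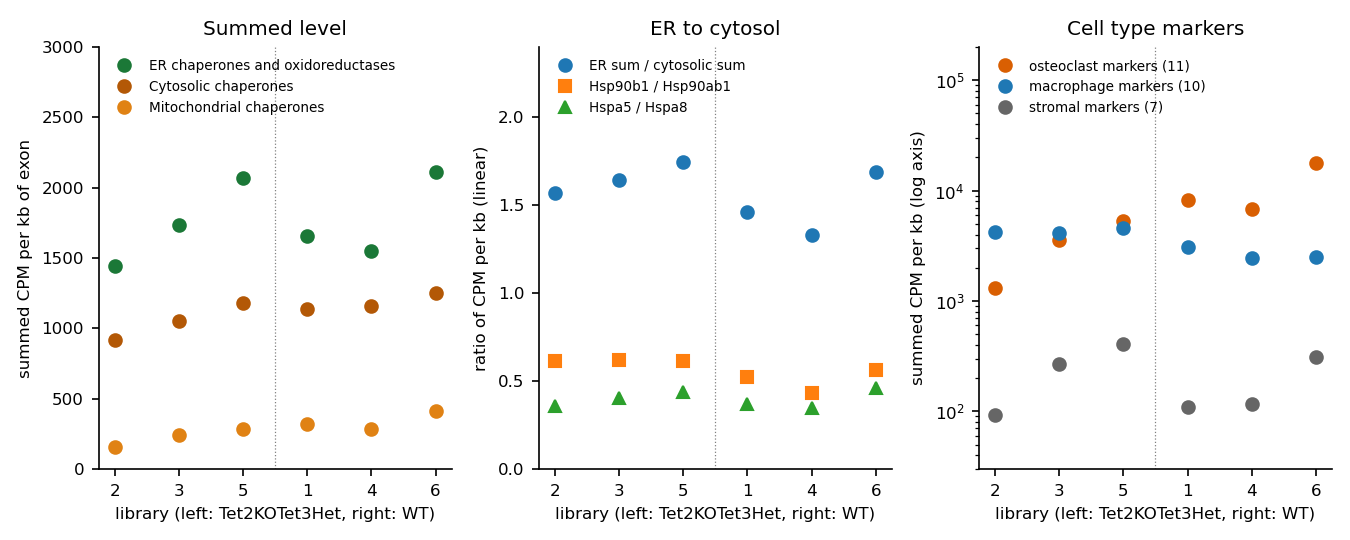
Per library, mutant-labelled (Tet2KOTet3Het: 2, 3, 5) left of WT (1, 4, 6): summed CPM per kilobase of ER, cytosolic and mitochondrial chaperone members (left panel), ratios of ER to cytosolic levels (middle) and summed CPM per kilobase of osteoclast, macrophage and stromal markers on a log axis (right). The ER to cytosol ratio runs from 1.57 to 1.75 in mutant-labelled and from 1.33 to 1.69 in WT libraries.

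The 3 mitochondrial chaperone genes had log2 fold changes between -0.60 and -0.57, and 1 of them fell when the naming batch was included. In that fit 5.6% of all genes fell, and with only 3 genes nothing is read from the count. *Hspe1*, which encodes the cochaperonin HSP10 (chromosome 1, 55088132 to 55091307, mm10), stood at 63.2, 79.3 and 99.6 CPM in mutant-labelled libraries, against 107, 108 and 152 CPM in WT. The groups did not overlap, and library 6 was the highest. Its log2 fold change was -0.60 (SE 0.216, interval -1.12 to -0.08), with an edgeR adjusted p of 0.197 without and 0.0293 with the naming batch, and a DESeq2 adjusted p of 0.127. *Hspd1*, its neighbour, which encodes the chaperonin HSP60, gave 152, 277 and 334 CPM in mutant-labelled and 363, 312 and 455 CPM in WT libraries; library 5 exceeded library 4, and the log2 fold change was -0.57 (edgeR adjusted p = 0.382). *Hspa9*, the gene of the mitochondrial HSP70 mortalin, which draws proteins into the matrix, had 243, 349 and 395 CPM in mutant-labelled and 470.1, 396 and 598 CPM in WT libraries, which were apart by about 1 CPM (log2 fold change -0.57, edgeR adjusted p = 0.251, and 0.0839 with the naming batch). The annotation names 6 pseudogenes of *Hspe1*, 5 of *Hspd1*, 1 of *Hspa9* and 1 each of *Calr* and *Dnaja1*, so reads shared with these copies leave the levels uncertain. The treatment of such reads in the counting is not given in the sources used here.

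The 11 osteoclast markers all had log2 fold changes below 0 (median -1.51), 0 passed in edgeR and 8 fell once the naming batch was included, where 5.6% of all genes fell. In summed level both these markers and the mitochondrial chaperones were lowest in library 2 and highest in library 6. The ER chaperones, the cytosolic chaperones, the degradation genes and the sensor and regulator genes had the same lowest and highest libraries. The order is therefore not particular to the mitochondrial genes. The summed marker level was 1318, 3545 and 5359 CPM per kilobase in mutant-labelled libraries against 8276, 6766 and 17694 in WT, and that of the 3 chaperone genes was 157, 239 and 286 against 319, 284 and 414. Of the 10 macrophage markers, 9 had log2 fold changes above 0, 0 passed in edgeR and 5 rose with the batch included, where 3.08% of all genes rose. Of the 7 neutrophil markers 6 were tested, and all 6 had log2 fold changes above 0. In edgeR 0 of them passed, and 3 (*S100a8*, *S100a9* and *Ltf*) rose with the batch included. None of these markers was at 0 in any library, and their part in the levels of *Atf6* or the mitochondrial chaperones was not tested.

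A further 137 folding genes were listed by pathway and not by value, of which 135 were in the table and tested; 0 passed in edgeR, 26 stood at an unadjusted p under 0.05 (19.3%, against 19.6% of all genes), 2 rose and 5 fell with the batch included (5.19%, against 8.68% of all genes), and DESeq2 called 3 higher and 7 lower, where it called 5.26% of all genes higher and 6% lower. These shares are near or below those of all genes. All 12 genes of mitochondrial protein folding and proteolysis had log2 fold changes below 0 (median -0.38), as had 7473 of the 14040 genes tested (median -0.03), and 4 of the 12 fell with the batch included, where 5.6% of all genes fell. These were *Dnaja3*, a cochaperone of mortalin (-0.96, edgeR adjusted p = 0.0275 with the batch term), the protease genes *Lonp1* (-0.72, 0.0174) and *Afg3l2* (-0.79, 0.0263), and *Trap1*, the mitochondrial HSP90 gene (-0.61, 0.0403). *Lonp1*, for example, averaged 65.1 ± 7.51 CPM in mutant-labelled and 107 ± 22.6 CPM in WT libraries (SD, n = 3 each).

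Median log2 fold changes of the further ER lists were -0.04 over 22 ER folding genes, 0.01 over 18 degradation genes and -0.01 over 17 genes of entry into the ER, with 9, 10 and 8 members above 0. *Cnpy3*, which encodes an ER chaperone of Toll-like receptors, rose with the batch included (edgeR adjusted p = 0.0158) and stood just above the threshold without it (0.0544). Its values were 118, 117 and 116 CPM in mutant-labelled libraries, against 75.0, 73.5 and 66.1 CPM in WT, with a wide gap between the groups and a log2 fold change of 0.71 (SE 0.0923). Of 41 further cytosolic folding genes (median -0.07), *Hspa4l*, of the HSP110 family, fell with the batch term, at 49.3 ± 5.71 CPM in mutant-labelled and 71.2 ± 5.25 CPM in WT libraries (SD, n = 3 each, edgeR adjusted p = 0.0395). The heat-inducible *Hspa1a* and *Hspa1b*, near-identical copies whose reads cannot be assigned with certainty, did not exceed 5.71 CPM in the mutant-labelled libraries or 2.80 CPM in WT. Among 25 further genes of the unfolded protein and integrated stress responses (median 0.05), *Cebpb*, the gene of a transcription factor, rose with the batch term, at 47.3, 47.9 and 79.1 CPM in mutant-labelled and 27.5, 21.5 and 48.2 CPM in WT libraries (edgeR adjusted p = 0.0191), although WT library 6 lay inside the mutant-labelled range.

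The log2 ratio of mutant-labelled to WT libraries was below 0 both for libraries 2 and 3 over 1 and 4 and for library 5 over 6 in 23 of 38 members, above 0 in both for 7 and of opposite sign for 8. *Atf6* had -0.64 and -0.49, *Hspe1* -0.60 and -0.61, *Hspa9* -0.57 and -0.60, *Hspd1* -0.71 and -0.44, and *Edem1* -0.60 and -0.47. *Atf4* (-0.33 and -0.69), *Eif2ak3* (-0.29 and -0.66) and *Ppp1r15a* (-0.22 and -0.68) were farther from 0 between libraries 5 and 6. *Sdf2l1* had 0.50 and 0.45. *Hspa5* had -0.03 and -0.17, and *Hsp90b1* -0.03 and 0.06. Over all genes the medians were -0.02 and -0.01. How many of all genes had the same or opposite signs was not counted. Nothing particular to the members is therefore read from the counts of 23, 7 and 8. With 1 library of each genotype, the comparison of libraries 5 and 6 has no replicate.

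**Figure D5:**
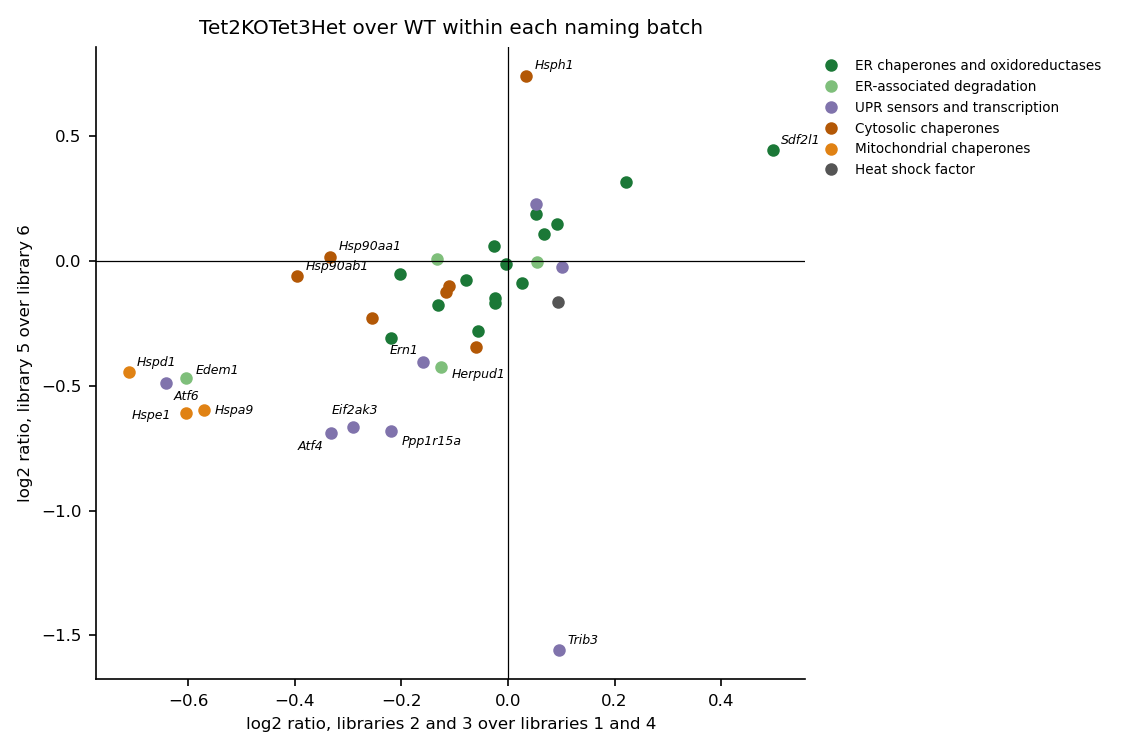
Log2 ratio of mutant-labelled to WT libraries for each of the 38 members within the naming batches: libraries 2 and 3 over libraries 1 and 4 on the x axis, library 5 over library 6 on the y axis, colour by role. *Atf6*, *Edem1* and the 3 mitochondrial chaperones lie at -0.44 or below on both axes, and the ER chaperones other than *Sdf2l1* lie between -0.31 and 0.32; *Trib3*, at -1.56 for library 5 over 6, rests on 11 and 31 counts.

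Leaving out a single library turned the sign of the log2 fold change for 16 members and moved it by more than 1.5 times, with the sign kept, for 16 others. Library 2 held the lowest value of 23 of the 38 members and library 6 the highest of 22. Summed over all members, the level was 10336, 12225 and 13956 CPM in mutant-labelled libraries 2, 3 and 5. In WT libraries 1, 4 and 6 it was 12835, 12277 and 15226 CPM. The log2 fold change of *Hspd1* was -0.27 without library 2 and -0.82 without library 5, that of *Hspa9* -0.36 and -0.73, and that of *Pdia6* 0.44 and 0.07. Without library 6 that of *Eif2ak3* was -0.23 and that of *Atf4* -0.28. *Atf6* ranged from -0.69 to -0.52 and *Hspe1* from -0.79 (without library 5) to -0.40 (without library 6) when each library was left out in turn, and *Sdf2l1* from 0.41 to 0.65.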

How the data were processed

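The authors deposited raw counts per Ensembl gene, whole numbers that were not normalized, with symbols and mm10 coordinates. Per the labels' protocols, stranded mRNA libraries were read single-end at 75 bases. The submitters' processing notes name mm10, SAMtools 0.1.19, Bowtie2 2.2.3 and TopHat2 2.0.13. How reads were counted, strand setting included, is not given in the sources used here. Of 23264 rows, 60 listed a gene again with the same counts and were left out. Columns were assigned to genotypes by name. No 2 libraries agreed within sampling noise: chi-square over its degrees of freedom was at least 25.7. The column names tie libraries to no animal, so p-values measure only the spread among these libraries, part of which may be technical.

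After filterByExpr, which left 14040 genes, and TMM scaling, edgeR 4.0.16 (R 4.3.3) was used for quasi-likelihood tests, genotype being the only term and 0.05 the adjusted threshold; DESeq2 1.42.0 and limma 3.58.1 were alternatives. The fit was also run on simulated counts that held no naming batch, so the simulation cannot show how that split affects the calls. The common biological coefficient of variation was 40.9%, or 23.5% with the naming batch included, so modest differences may go uncalled. Confidence intervals are at 95%. CPM values are TMM-scaled; levels per kilobase use the union of exons in GENCODE M21 (mm10), and log2 ratios outside the fits use a prior of 0.5 counts.

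Members and lists were chosen with earlier results of these data known. All members are named; values in every library are given for members past the threshold in either edgeR fit, for those whose libraries did not overlap and for the 2 highest per length in each role, and *Hspa5*, *Hsp90b1* and *Hsp90aa1* were added afterwards, as were *Tet2* and *Tet3* as a check of the labels. Of the 137 further genes, those past the threshold in either edgeR fit are named; *Hspa1a*, *Hspa1b* and those under other observations were picked after their values were seen. Promoter sequences are from RefSeq (GRCm38.p6).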

Additional observations from a re-analysis of the deposited data

How the results depend on the processing

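Across all genes, 7 rose and 3 fell in the edgeR fit reported, against 629 and 717 in DESeq2, 46 and 35 with no low-count filter, and 433 and 786 after adding the naming batch; leaving out a library gave 0 to 2 and 0 to 1. Among the 38 members, 0 fell in the fit reported, 1 in DESeq2 (*Atf6*, -0.56) and 2 with the batch term (*Atf6*, -0.60, and *Hspe1*, -0.60), and 0 without any one library, with RLE size factors, in limma-voom or with no filter; none rose under any of these. Of the further folding genes 3 rose and 7 fell in DESeq2, 2 and 5 with the batch term, and 1 and 0 with no filter. *Tet2* (-0.57) passed in DESeq2 (-0.54) and with the batch term (-0.57), and ranged from -0.63 to -0.49 without each library; *Tet3* ranged from 0.21 to 0.30. The log2 ratio of genotypes in the ER to cytosolic ratio was 0.15, 0.12 without scaling by length, 0.26 without the most abundant gene of each side, and 0.07 to 0.24 without each library. The cause of these differences was not tested.

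Members near 0 changed sign with the setting. With RLE size factors the values became *P4hb* 0.029, *Dnajb11* 0.019, *Hsf1* 0.020, and in DESeq2 *P4hb* 0.026, *Dnajb11* 0.016, *Hsf1* 0.016. Without each library in turn the sign turned for 16 members: the range was -0.41 to 0.16 for *Calr*, -0.034 to 0.29 for *Creld2*, -0.32 to 0.030 for *Dnajb1*, -0.050 to 0.069 for *Dnajb11*, -0.15 to 0.077 for *Dnajc3*, -0.18 to 0.14 for *Hsf1*, -0.40 to 0.13 for *Hsp90aa1*, -0.13 to 0.17 for *Hsp90b1*, -0.21 to 0.022 for *Hspa4*, -0.20 to 0.11 for *Hspa5*, -0.19 to 0.060 for *Hyou1*, -0.11 to 0.14 for *P4hb*, -0.011 to 0.18 for *Pdia3*, -0.033 to 0.31 for *Pdia4*, -0.085 to 0.21 for *Syvn1* and -0.92 to 0.054 for *Trib3*. No paired analysis was possible because the column names carry no replicate numbers.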

Other observations

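Further genes of the stress responses, picked after their values were seen, are given as values. *Asns*, the asparagine synthetase gene that ATF4 induces, stood at 21.8, 47.8 and 44.3 CPM in mutant-labelled libraries, against 61.0, 67.2 and 94.6 CPM in WT (log2 fold change -0.97, edgeR adjusted p = 0.171, DESeq2 adjusted p = 0.0559). *Chac1*, a glutathione-degrading enzyme gene induced by ATF4, gave 2.17, 6.01 and 4.17 CPM in mutant-labelled and 7.93, 11.5 and 18.6 CPM in WT libraries (-1.63, edgeR adjusted p = 0.144), and DESeq2 called it lower (adjusted p = 0.0241). For both genes, as for *Atf4*, every mutant-labelled library lay below every WT library. The same held for 16.9% of all genes and for 6 of the 25 further genes of these responses, while 2 of the 25 were higher in every mutant-labelled library. The libraries of *Trib3*, also induced by ATF4, overlapped. Nothing particular to ATF4 is read from genes picked by their values. Among other listed genes of the response, *Psat1* had a log2 fold change of -0.09, *Sesn2* of 0.07 and *Slc3a2* of 0.33, with overlapping libraries. *Atf3*, a stress-induced transcription factor gene, stood at 85.7, 38.4 and 71.2 CPM in mutant-labelled libraries, against 34.2, 26.4 and 28.5 CPM in WT (1.14, edgeR adjusted p = 0.119, DESeq2 adjusted p = 0.00538). *Creb3l2*, which encodes an ER membrane transcription factor of the ATF6 type, had 71.3, 70.4 and 57.8 CPM in mutant-labelled and 84.8, 120.1 and 103 CPM in WT libraries (-0.63, edgeR adjusted p = 0.113, DESeq2 adjusted p = 0.0194), and *Atf6b*, the paralogue of *Atf6*, had 73.9, 81.3 and 85.1 against 62.8, 67.5 and 70.9 CPM, higher in every mutant-labelled library (0.26, edgeR adjusted p = 0.227).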
